A study of Homo sapiens with 6 samples.

Results

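CD96, a receptor of T cells and natural killer cells, and 9 genes of the same recognition system were followed in WM164, an established line of human melanoma cells whose BRAF kinase is mutated. The 10 genes, of 18417 tested, were CD96, the related receptor genes TIGIT, CD226 and CRTAM, the nectin and nectin-like ligand genes PVR, NECTIN1, NECTIN2, NECTIN3 and NECTIN4, and CADM1. They were chosen by name, and each was represented by a single probe set, so that no choice between probe sets was needed. CD96 heads the list because its low value in the treated cells was already known. Its difference is therefore given as a description with no test, while the other 9 genes were named as its relatives and were tested in a fit over all genes. Parent cells, which per the series title were exposed to the solvent DMSO, were compared with IDTC colonies, which were kept for 60 days in 500 nM PLX4032 (vemurafenib, an inhibitor of mutant BRAF) and are described in the labels as resistant. Both groups are of the same BRAF mutant line, with 3 samples each and 1 Affymetrix whole-transcript array per sample. The labels do not say whether the samples of a group were separate cultures or, for the colonies, separate clones.

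Nectins and nectin-like molecules are immunoglobulin-type adhesion proteins that pair across cell contacts, with themselves or with each other, and most nectins are anchored to actin inside the cell through afadin. Lymphocytes read some of them through a set of competing receptors. PVR (CD155) is bound by the activating receptor CD226 and by the receptors TIGIT and CD96, NECTIN2 (CD112) is bound by CD226 and TIGIT, and CADM1 is bound by CRTAM. Tumour cells usually carry the ligands, whereas the receptors are known chiefly from T and natural killer cells.

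Promoter sequences from RefSeq (GRCh38.p14) were found for 7 of the 10 genes, each 300 bases long, from 250 bases before the transcription start to 50 after it, and NECTIN1, CADM1 and CRTAM had no entry. They are shown for CD96 and NECTIN3, which were next to each other in the order of measured genes on chromosome 3, and for the ligand genes PVR and NECTIN2 on chromosome 19, which differed in opposite directions. Capitals mark every match, on either strand, to any of 10 short motifs: the E-box CACGTG, the M-box core CATGTG, the AP-1 site TGACTCA, the cyclic AMP response element TGACGTCA, the ETS site CCGGAAG, the SOX sites ACAAAG and ACAATG, the RUNX site TGTGGT, the GC box GGGCGG and the TATA box TATAAA.
CD96, chr3:111541947-111542246, plus strand: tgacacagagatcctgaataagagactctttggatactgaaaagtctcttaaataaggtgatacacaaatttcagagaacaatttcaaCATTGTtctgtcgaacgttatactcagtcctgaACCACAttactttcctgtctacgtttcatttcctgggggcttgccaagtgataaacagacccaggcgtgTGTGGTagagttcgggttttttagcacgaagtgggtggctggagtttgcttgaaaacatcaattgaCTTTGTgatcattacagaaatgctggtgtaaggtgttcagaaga
NECTIN3, chr3:111071566-111071865, plus strand: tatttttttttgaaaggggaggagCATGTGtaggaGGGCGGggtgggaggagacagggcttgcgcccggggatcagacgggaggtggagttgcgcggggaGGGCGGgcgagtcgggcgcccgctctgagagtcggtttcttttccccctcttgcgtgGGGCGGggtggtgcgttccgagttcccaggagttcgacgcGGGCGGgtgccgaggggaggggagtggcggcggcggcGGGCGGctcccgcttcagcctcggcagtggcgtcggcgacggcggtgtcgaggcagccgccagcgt
PVR, chr19:44643660-44643959, plus strand: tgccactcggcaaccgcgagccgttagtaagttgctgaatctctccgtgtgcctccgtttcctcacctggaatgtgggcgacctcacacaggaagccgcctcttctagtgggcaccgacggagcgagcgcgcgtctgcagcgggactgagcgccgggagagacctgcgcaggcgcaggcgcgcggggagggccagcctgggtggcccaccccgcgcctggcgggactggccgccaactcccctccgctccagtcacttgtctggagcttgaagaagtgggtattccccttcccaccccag
NECTIN2, chr19:44846047-44846346, plus strand: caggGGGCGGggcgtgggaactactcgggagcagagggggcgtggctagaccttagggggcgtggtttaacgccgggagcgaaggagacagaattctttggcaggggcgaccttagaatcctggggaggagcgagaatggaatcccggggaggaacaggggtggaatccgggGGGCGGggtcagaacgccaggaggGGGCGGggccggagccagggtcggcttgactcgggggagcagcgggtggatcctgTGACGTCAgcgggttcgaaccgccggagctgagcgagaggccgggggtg

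The CD96 window was 41% G and C with 6 CpG dinucleotides, against 36 CpG in the NECTIN3 window, 27 in PVR, 26 in NECTIN2 and 10 in NECTIN4, and a median of 14 over the 35116 promoter windows of the same table. The CpG count of the TIGIT window, 6, equalled that of CD96, and the windows of the 2 CD226 starts held 8 and 3. In the CD96 window the letters of a RUNX site occurred at 2 places (13.1% of all windows hold at least 1), the SOX site ACAAAG at 1 place (16.1%) and the SOX site ACAATG at 1 place (10.8%). NECTIN3 held 5 GC boxes (45% of all windows hold at least 1) and an M-box core (11.1%), and NECTIN2 held 3 GC boxes and the cyclic AMP response element (1.85%). These are matches of letters only. None of the motifs matched in the PVR window.

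The median log2 value over all probe sets was 6.25 to 6.34, depending on the array, and precision is limited by there being 3 arrays per group. Across genes, the correlation was 0.997 to 0.998 within a group and 0.967 to 0.969 between groups. The melanocyte lineage was visible in both groups, where the mean log2 value of 8 lineage markers was 10.13 to 10.18 on parent arrays and 10.38 to 10.41 on colony arrays. The 8 did not move together, with differences from -1.45 (MLANA) to 2.37 (EDNRB). TYRP1 was dim, with group means of 4.69 in parent cells and 4.45 in colonies. Over all genes the median difference between colonies and parent cells was 0.00, and 43.8% of all genes passed the test (limma, Benjamini-Hochberg adjusted p under 0.05), made up of 20.9% that were higher and 22.9% that were lower in the colonies. Levels of different probe sets cannot be compared with each other, so each gene is compared only with itself.

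CD96 (probe set 8081564) was bright in parent cells and dim in the colonies. Its log2 values were 10.17, 10.09 and 10.24 on the 3 parent arrays and 5.53, 5.53 and 5.55 on the 3 colony arrays. The groups lay far apart, and the arrays within each group lay close together. The mean was 10.17 ± 0.07 in parent cells and 5.53 ± 0.01 in colonies (SD, n = 3 arrays per group), a log2 difference of -4.63 ± 0.05 (SE), or 24.8-fold lower. Only IGFBP5 had a lower difference among the 18417 genes, and 5 genes in all were at least 16-fold lower. The colony values lie below the lowest array median (6.25), and whether they lie above background was not tested, so the size of the difference is that of the deposited values. In RNA from whole samples, fewer cells with the transcript and less transcript per cell cannot be told apart. The probe set is assigned to more than 1 CD96 transcript, and these cannot be told apart either.

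**Figure D1:**
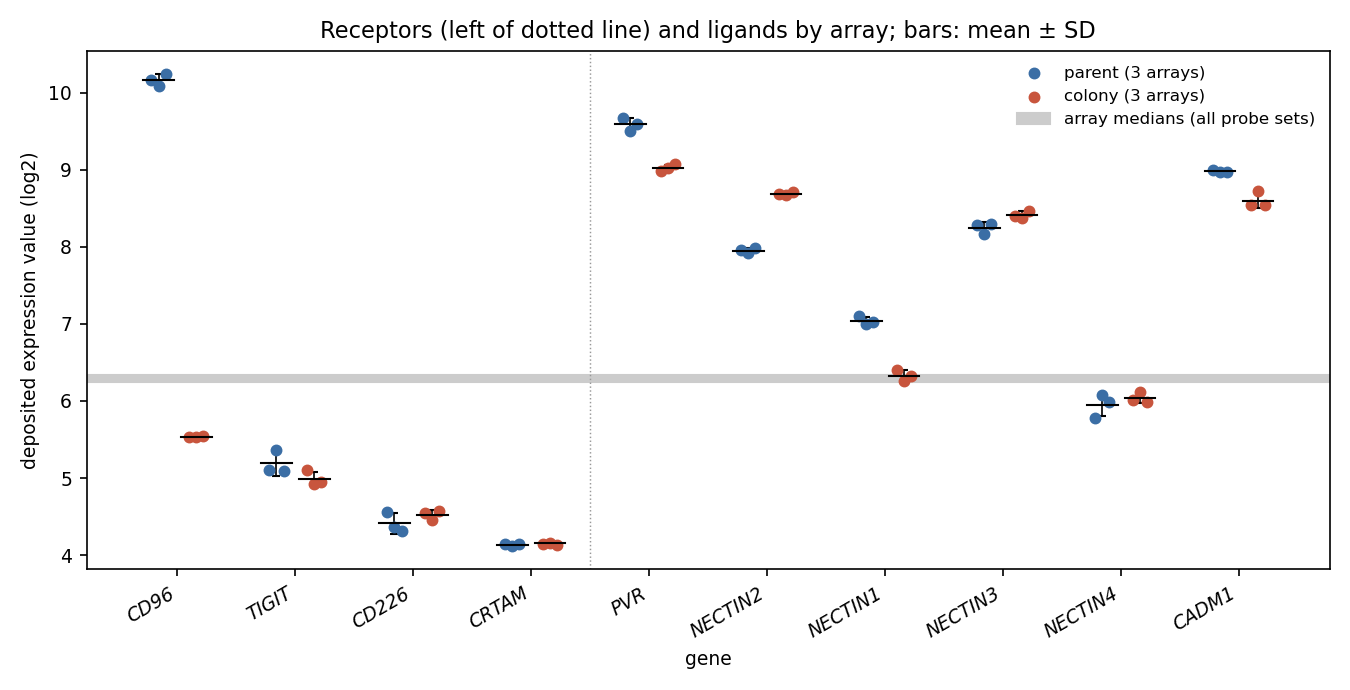
Deposited log2 expression values (vertical axis) of the 4 receptor genes and 6 ligand genes (horizontal axis) on each of 3 parent and 3 colony arrays, with the mean and SD of each group as black bars and the range of array medians as a grey band. CD96 is the only receptor gene whose arrays lie above the band, and only in parent cells.

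The other receptor genes were dim in both groups and did not pass the test. TIGIT, an inhibitory receptor that competes with CD226 for PVR, had log2 values of 5.11, 5.37 and 5.09 in parent cells and 5.10, 4.92 and 4.95 in colonies. The ranges of the groups overlapped, and the difference was -0.20 (95% confidence interval -0.41 to 0.00, limma adjusted p = 0.109). CD226, the activating counterpart, read 4.56, 4.36 and 4.31 in parent cells and 4.54, 4.45 and 4.57 in colonies, a difference of 0.11 (interval -0.07 to 0.29, limma adjusted p = 0.309). CRTAM, the lymphocyte receptor for CADM1, differed least, with 4.14, 4.12 and 4.14 in parent cells and 4.14, 4.16 and 4.13 in colonies (0.01, interval -0.08 to 0.11, limma adjusted p = 0.84). For these 3 genes both group means lay below every array median, and whether they lie above background was not tested. TIGIT passed the test with arrays shifted to a common median (-0.23, adjusted p = 0.0491) and with the median of its gene neighbourhood subtracted (-0.43, adjusted p = 0.00478), and CD226 passed it without parent replicate 1 (0.19, adjusted p = 0.0341).

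Among the ligands, PVR and NECTIN2 changed in opposite directions. PVR, also known as the poliovirus receptor and the ligand shared by CD96, TIGIT and CD226, had log2 values of 9.67, 9.51 and 9.60 in parent cells and 8.98, 9.02 and 9.07 in colonies. It fell by 0.57 ± 0.06 on the log2 scale, or 1.49-fold (limma adjusted p = 0.00011). NECTIN2 read 7.96, 7.92 and 7.98 in parent cells and 8.69, 8.67 and 8.71 in colonies, and rose by 0.74 ± 0.04, or 1.67-fold (limma adjusted p = 7.7e-06). In neither gene did the groups overlap. The log2 value of PVR minus that of NECTIN2, which is meaningful only as a change between arrays, was 1.72, 1.59 and 1.62 on parent arrays and 0.29, 0.36 and 0.35 on colony arrays. Its mean was thus lower by 1.31 in the colonies (1.64 ± 0.07 against 0.33 ± 0.04, SD, n = 3 arrays per group).

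The remaining nectins changed less evenly. NECTIN1, an adhesion molecule that pairs with NECTIN3 and serves herpes simplex virus as an entry receptor, had values of 7.10, 7.0 and 7.02 in parent cells and 6.40, 6.26 and 6.33 in colonies. It fell by 0.71 ± 0.05, or 1.64-fold (limma adjusted p = 3e-05), to a level close to the array medians. NECTIN3, which pairs with NECTIN1, NECTIN2 and PVR across cell contacts, had values of 8.28, 8.17 and 8.30 in parent cells and 8.40, 8.37 and 8.46 in colonies, so that its groups did not overlap but lay close together. Its rise of 0.16 ± 0.05 passed the test narrowly (limma adjusted p = 0.0437). The call ended with arrays shifted to a common median (0.13, adjusted p = 0.143), with all probe sets tested (adjusted p = 0.0777), without parent replicate 2 or parent replicate 3 (0.12 and 0.18, adjusted p = 0.115 and 0.0527) and without colony replicate 1, colony replicate 2 or colony replicate 3 (0.16, 0.18 and 0.13, adjusted p = 0.0933, 0.069 and 0.125). With the median of its gene neighbourhood (0.21) subtracted, the value was -0.05 (adjusted p = 0.471). NECTIN4, an epithelial nectin that measles virus uses for entry, was dim, with 5.78, 6.08 and 5.99 in parent cells and 6.01, 6.12 and 5.99 in colonies. Its groups overlapped (0.09, interval -0.10 to 0.28, limma adjusted p = 0.439).

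CADM1, a nectin-like adhesion molecule and the ligand of CRTAM, fell. Its values were 9.00, 8.97 and 8.97 in parent cells and 8.54, 8.72 and 8.54 in colonies, a change of -0.38 ± 0.06 (limma adjusted p = 0.00129). All 3 colony arrays were below all parent arrays, with colony replicate 2 nearest to them. In total 5 of the 9 genes other than CD96 passed the test, 2 higher and 3 lower, beside 43.8% of all genes, and 5 of the 9 had groups that did not overlap, beside 50.8% of all genes. Shares this close to those of all genes are not particular to these 9. Each of the 5 genes that passed had a change under 2-fold, whereas CD96 differed 24.8-fold.

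**Figure D2:**
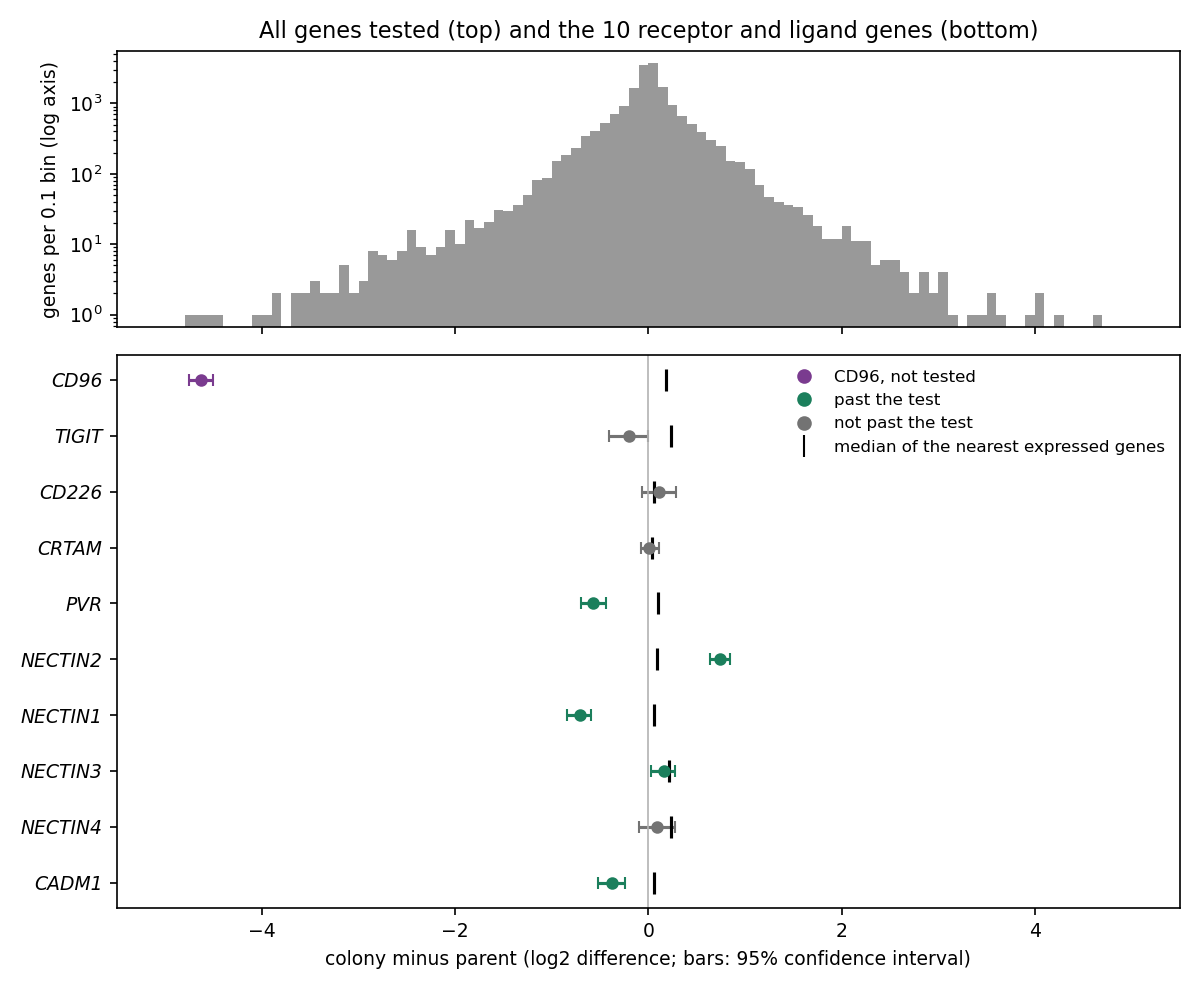
Top, number of genes (log axis) by log2 difference between colonies and parent cells for all 18417 genes. Bottom, the difference of each of the 10 genes with its 95% confidence interval, and a black tick at the median of up to 50 nearest expressed genes in the gene order. CD96 lies at the far left edge, at -4.63, while the other 9 genes lie between -0.71 and 0.74.

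Among the 25 measured genes on each side of CD96 on chromosome 3, none had a difference of its size. NECTIN3 is its nearest measured neighbour on 1 side (0.16), and ZBED2, a zinc finger gene that lies inside CD96 on the opposite strand, is the nearest on the other. ZBED2 had a log2 value of 6.29 on all 3 parent arrays and of 6.29, 6.29 and 6.25 on the colony arrays, which gave a difference of -0.01 ± 0.04 (limma adjusted p = 0.837). Among the 5 measured genes on each side, NECTIN3, LOC151760 (0.64) and PHLDB2 (0.85) rose, which is 3 of 10, beside 20.9% of all genes. The test was not passed by the remaining 7, which were MORC1 (0.10), DPPA2 (-0.05), DPPA4 (-0.03), ZBED2 (-0.01), PLCXD2 (0.10), ABHD10 (0.10) and TAGLN3 (0.05). For MORC1, DPPA2, DPPA4, PLCXD2, TAGLN3 and LOC151760 both group means lay below every array median, so a fall in them could hardly be seen. ZBED2 lay close to the array medians, whereas NECTIN3 and ABHD10 had parent means of 8.25 and 8.24. PHLDB2, which encodes a membrane-associated protein of the cell cortex, had 6.93, 6.44 and 6.55 in parent cells and 7.37, 7.56 and 7.55 in colonies. Over 25 measured genes on each side, 17 of 50 rose and 4 fell, beside 20.9% and 22.9% of all genes, with differences from -0.60 to 0.85 and a median of 0.10. With the median of its 50 closest expressed neighbours (0.18) taken off, the CD96 value was -4.81. TIGIT lies on the same chromosome, beside a neighbourhood median of 0.23.

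**Figure D3:**
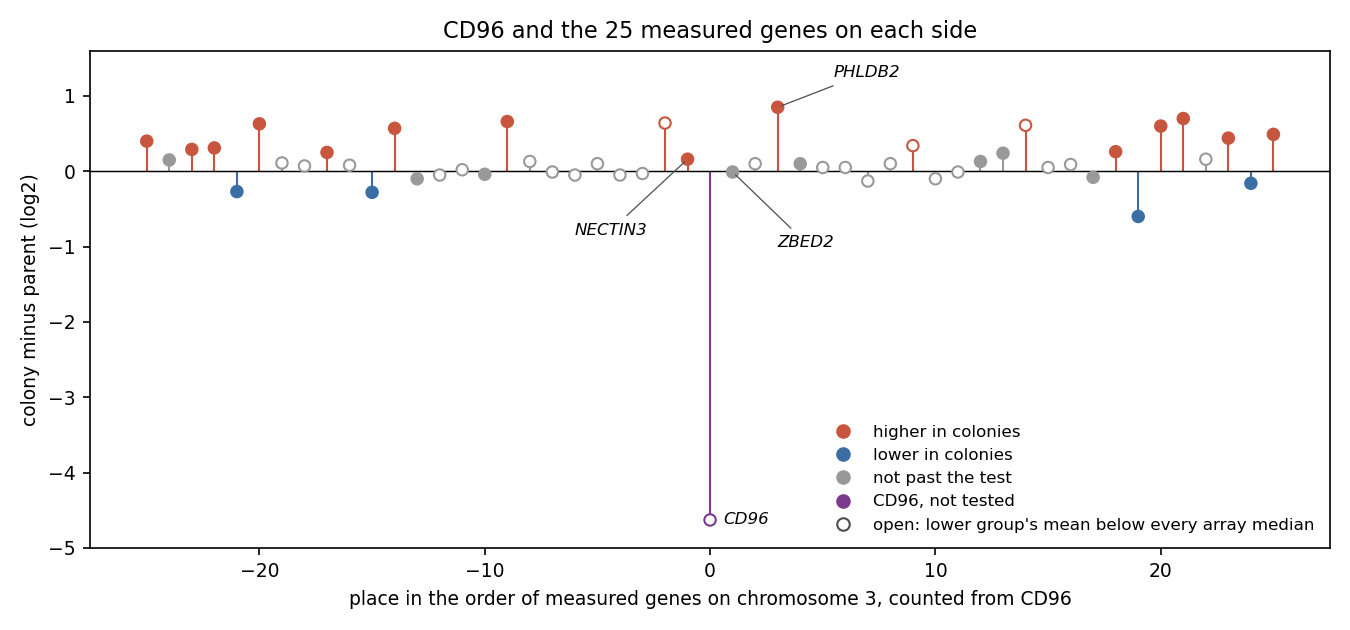
Log2 difference between colonies and parent cells (vertical axis) for CD96 and the 25 measured genes on each side, by place in the gene order on chromosome 3 (horizontal axis). Open circles are genes whose lower group mean lies below every array median. All 50 neighbours lie between -0.60 and 0.85, against -4.63 for CD96.

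The 8 genes whose profile over the 6 arrays was nearest to that of CD96, each gene centred on its own mean, lay at a Euclidean distance of 0.21 to 1.16 log2 units, beside a median of 5.67 over all genes. The nearest was IGFBP5 (distance 0.21), which encodes a protein that binds insulin-like growth factors, followed by GMPR (0.31), a guanosine monophosphate reductase, and PNMA5 (0.51). PRKAA2 (0.74), a catalytic subunit of AMPK, CACNA2D1 (0.88), a calcium channel subunit, LPXN (0.93), TMEM163 (0.94) and SPRR2D (1.16) completed the 8. With 2 groups such a distance reflects mainly the size of the difference, which ran from -4.77 for IGFBP5 to -3.70 for SPRR2D. These genes lie on chromosomes 1, 2, 6, 7, 11 and X, and none on chromosome 3.

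Of 3 further genes, CADM3, CADM4 and the receptor gene PVRIG, 1 passed the test, beside 43.8% of all genes. CADM4, a nectin-like relative of CADM1, rose from 8.59, 8.67 and 8.69 in parent cells to 9.46, 9.41 and 9.61 in colonies (0.84 ± 0.06, limma adjusted p = 2.8e-05). CADM3 differed by -0.01, with both group means below every array median, and PVRIG, a further receptor for NECTIN2, by -0.08. Neither passed the test. PVRIG passed it without parent replicate 1 (adjusted p = 0.00842). CADM2 was not analysed here. CADM1 and CADM4 thus changed in opposite directions, as PVR and NECTIN2 did.

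Genes of nectin-based junctions split between both directions. There were 27 such genes measured. The test was passed by 18, of which 10 rose and 8 fell, beside 43.8% of all genes, and the median difference was -0.01 beside 0.00 for all genes. Only 5 of the 27 had both group means below every array median, and 6735 of 9208 genes passed with only genes above the median expression tested. CDH2, the N-cadherin of melanoma cells, fell by 1.42 ± 0.06 from values of 10.54 to 10.56. ITGAV, the alpha subunit of the vitronectin receptor, rose by 1.06 ± 0.05, whereas its partner subunit gene ITGB3 fell by 0.95 ± 0.04. RAP1B, a small GTPase of adhesion signalling, fell by 0.91 ± 0.09. The 4 adjusted p-values ran from 1.3e-06 to 0.00011. AFDN, which encodes the nectin adaptor afadin and was singled out after its values were seen, read 7.01 on all 3 parent arrays and 7.41, 7.52 and 7.49 on colony arrays (0.46 ± 0.05, limma adjusted p = 0.00012). Identical values on all parent arrays occurred for 215 genes in the deposited table.

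Partners of CADM1 changed in 11 of 12 cases, 6 higher and 5 lower, with a median of 0.10, beside 43.8% of all genes changed. That 43.8% includes many dim genes, whereas only 1 of the 12 had both group means below every array median. With only genes above the median expression tested, 6735 of 9208 genes passed. MPP1, a membrane scaffold protein gene, rose by 0.98 ± 0.04, and EPB41L2, which encodes a protein of the band 4.1 family, rose by 0.59 ± 0.06. PTPN13, a protein tyrosine phosphatase gene, fell by 0.78 ± 0.05, and ITGA6, the integrin alpha subunit that pairs with ITGB4, fell by 0.61 ± 0.05. ITGB4 itself differed by -0.01 and did not pass, with both group means below every array median. Of the proteases that cut nectins and CADM1 from the surface, ADAM17 fell by 0.39 ± 0.05 and ADAM10 rose by 0.22 ± 0.04. Among 7 genes for effectors that act below TIGIT, CD96 and CD226 inside lymphocytes, 3 rose and 1 fell, beside 43.8% of all genes changed. PTPN11, the phosphatase SHP-2, fell by 0.48 ± 0.05, while FYN (0.19), PTPN6 (0.18) and GRB2 (0.14) rose slightly. For PTPN6 both group means lay below every array median. The call of PTPN6 ended without colony replicate 3 (adjusted p = 0.0557), and that of GRB2 ended under 8 of 13 alternatives, among them each single array left out except colony replicate 2, with adjusted p-values up to 0.15.

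Ligands of other natural killer cell receptors fell in 5 of 15 measured cases and rose in 2, while 8 did not pass the test (median -0.05). This share is close to the 43.8% of all genes. CLEC2B, the ligand of KLRF1 (NKp80), fell by 1.54 ± 0.12, from 6.24, 6.04 and 5.73 to 4.38, 4.49 and 4.52, all below the array medians. NCR3LG1 (B7-H6), the ligand of NKp30, fell from 9.92, 9.82 and 9.94 to 8.47, 8.49 and 8.51 (-1.40 ± 0.05, limma adjusted p = 6.7e-07). CD58, the ligand of CD2, changed from 10.42, 10.33 and 10.37 to 9.30, 9.33 and 9.40, a fall of 1.03 ± 0.05. CLEC2D, the ligand of KLRB1, rose by 1.19 ± 0.07, from 5.69, 5.56 and 5.79 to 6.89, 6.95 and 6.78. The falls in NCR3LG1 and CD58 were larger than that in PVR on the log2 scale, but these differences between genes were not tested.

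Of 19 measured genes for other lymphocyte receptors, 17 had both group means below every array median, the exceptions being KLRG1 and LAG3. In this list 2 rose and 2 fell (median -0.03), beside 43.8% of all genes changed. KLRG1, an inhibitory receptor that binds cadherins, rose by 1.53 ± 0.11, from 5.08, 4.80 and 5.15 to 6.36, 6.56 and 6.69. KLRF1 rose by 0.78 ± 0.09 at values of 3.05 to 4.01. SH2D1B (-0.36) and CTLA4 (-0.32) fell, with both group means below every array median, and each call ended under 6 of 12 alternatives, including without parent replicate 1, colony replicate 1, colony replicate 2 or colony replicate 3 and, for SH2D1B, without parent replicate 3 or, for CTLA4, without parent replicate 2 (adjusted p up to 0.138 for SH2D1B and 0.115 for CTLA4).

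**Figure D4:**
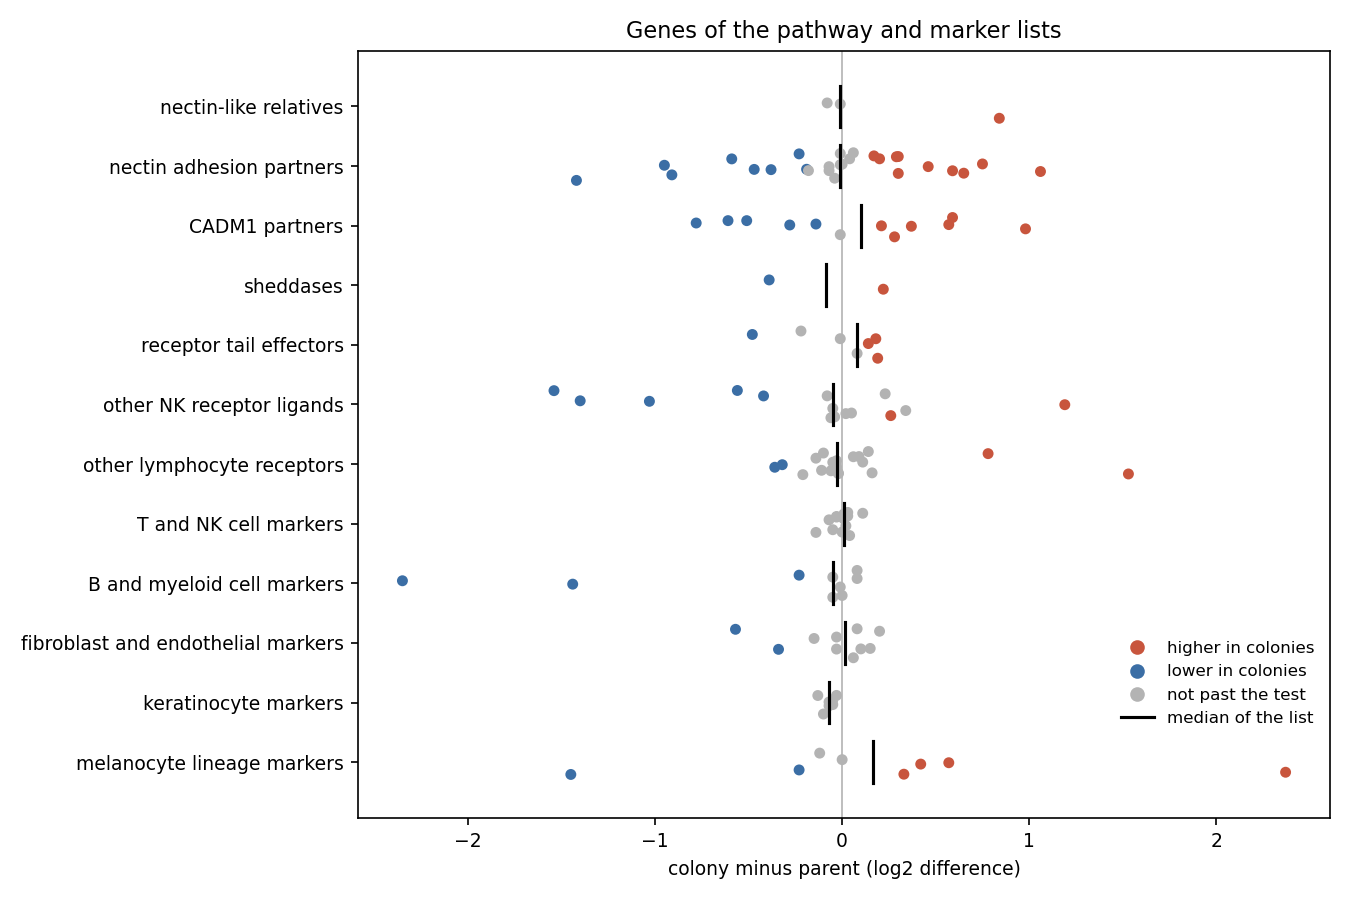
Log2 difference between colonies and parent cells (horizontal axis) for every measured gene of the 7 pathway lists and 5 marker lists (rows), with each list's median as a black line and vertical scatter only for legibility. All 15 T and natural killer cell markers lie between -0.14 and 0.11.

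Because CD96 is a lymphocyte gene, markers of lymphocytes were set beside it. None of 15 measured T and natural killer cell markers passed the limma test, beside 43.8% of all genes. Among them 1, CD8A, had an unadjusted p under 0.05, and GZMA, a granzyme gene, lay nearest to 0. In all 15 the groups overlapped, whereas they did not overlap in 50.8% of all genes. PTPRC (CD45), the common leukocyte antigen, read 3.71, 3.63 and 3.67 on parent arrays and 3.71 on all 3 colony arrays, and CD3E, a subunit of the T cell receptor complex, read 4.88, 4.93 and 4.93 against 5.00, 4.82 and 4.93. The mean log2 value of the 15 markers was 5.34 to 5.52 on parent arrays and 5.45 to 5.46 on colony arrays. Of the 15, 12 had both group means below every array median, so a fall in them could hardly be seen. The shares of all genes also cover brighter genes. B and myeloid markers fell in 3 of 9 cases, beside 22.9% of all genes, with a mean of 6.13 to 6.21 on parent arrays and 5.72 to 5.75 on colony arrays. LYZ, lysozyme, changed by -2.35 ± 0.10, FCER1G by -1.44 ± 0.11 and CSF1R by -0.23 ± 0.07, while the monocyte marker CD14 differed by 0.00. The part of these 3 genes in the CD96 result was not tested. The CSF1R call ended under 6 of 12 alternatives, including without parent replicate 2, parent replicate 3, colony replicate 1, colony replicate 2 or colony replicate 3 (adjusted p up to 0.116).

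Of 10 fibroblast and endothelial markers, 2 passed the test, beside 43.8% of all genes. PDGFRA fell by 0.57 ± 0.06 and LUM by 0.34 ± 0.09, and 8, with CDH5 (-0.03) nearest to 0, did not pass. The LUM call ended without colony replicate 1 (adjusted p = 0.0576). None of 7 keratinocyte markers passed the limma test, beside 43.8% of all genes, and 0 had an unadjusted p under 0.05, with KRT1 at -0.03. Melanocyte lineage markers rose in 4 of 8 cases and fell in 2, beside 20.9% and 22.9% of all genes. EDNRB (2.37 ± 0.07), S100B (0.57 ± 0.05) and SOX10 (0.42 ± 0.06) were among those that rose, and MLANA, the melan-A antigen gene, fell by 1.45 ± 0.04. TYRP1 (-0.23) also fell, with both group means below every array median, and its call ended under 5 of 12 alternatives.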

How the data were processed

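RNA of 3 parent and 3 colony samples was read on 1-colour Affymetrix whole-transcript arrays. Groups were taken from the titles. It is not stated that these were separate cultures, so the p-values reflect the spread between samples alone, and that spread may be technical. No scan batch is known. The deposited values are log2 expression values per probe set, made by the authors with Affymetrix Expression Console, per the submitters' processing notes. Its version, background correction and normalization: not given in the sources used here.

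Of 33297 probe sets, 19460 had 1 gene symbol in the platform annotation, 1754 several and 12083 none, and 19429 of the first matched the RefSeq table (GRCh38.p14) by Entrez ID, which was used for names and gene order. The probe set with the highest mean represented each of 18417 genes (769 had several), with no filter on dim genes. The 2-sided limma test (lmFit, then eBayes) had group as its single term, p-values were adjusted by Benjamini-Hochberg over the 18417 genes, and 0.05 was the threshold. The procedure was tested on simulated data. The arrays have no read depth. Both groups carry the numbers 1 to 3, and the pairing by number is covered under the alternatives.

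The members and the gene lists were chosen with earlier results of these data known. Named were the 10 members, in each list the 4 largest differences past the test (with the gene nearest to 0 where fewer passed), 5 measured genes on each side of CD96 and the 8 genes nearest to it in profile. Other genes named, among them AFDN, PTPRC, CD3E, CD8A, LAG3, PVRIG and ITGB4, were picked with their values in view. Alternatives covered leaving out each array, the replicate number as a block, a shift of the arrays to equal medians, quantile normalization, a filter that kept genes above the median expression (7.02), averaging the probe sets of a gene, testing every probe set, trended and robust eBayes, and, for the members, the median of up to 50 expressed neighbours (25 on each side) subtracted. Software: limma 3.58.1 (R 4.3.3), and pandas 2.3.3, numpy 2.4.6 and matplotlib 3.10.9 (Python 3.11.15).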

Additional observations from a re-analysis of the deposited data

How the results depend on the processing

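The CD96 value lay between -4.81 and -4.60 in 13 alternatives, and only subtracting the neighbourhood median, which gave -4.81, moved it by more than the spread between arrays. PVR (-0.67 to -0.53), NECTIN1 (-0.77 to -0.68), NECTIN2 (0.65 to 0.75) and CADM1 (-0.44 to -0.35) kept their direction and their call in every alternative run. NECTIN1 was dropped with only genes above the median expression, as were NECTIN4, CRTAM, CD226 and TIGIT. NECTIN3 kept its call in 5 of 14 alternatives, and with the neighbourhood median subtracted it turned to -0.05 (adjusted p = 0.471). The number of members past the test other than CD96 ran from 4 to 6, that of pathway genes from 40 to 48 (47 in the main comparison), and that of all genes from 6735 to 8354. The counts of 40 and 6735 came with only genes above the median expression, where fewer genes were tested. There 4 of 4 members, 40 of 45 pathway genes and 6735 of 9208 genes passed. In the main comparison these were 5 of 9, 47 of 85 and 8061 of 18417. Marker genes past the test numbered 7 with only genes above the median expression, where 11 of 49 markers were left to test, against 11 in the main comparison and 9 to 14 in the other alternatives. Of 58 list genes past the test, 48 stayed past it in each alternative, and none changed sign. Same-numbered samples did not deviate together (correlations of -0.089, -0.059 and -0.01), so the number pairs nothing here, and no sample correlated best with its own number. With the replicate block 4 members, 44 pathway genes, 11 marker genes and 7564 genes in all passed, CD96 stood at -4.63, and NECTIN3 did not pass (adjusted p = 0.0618). Dim genes have no tested background, which limits the receptor values most.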

Other observations

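KLRG1, KLRF1, CLEC2B and CLEC2D lie near each other on chromosome 12, and they share a neighbourhood median of 0.22. Their differences were 1.53, 0.78, -1.54 and 1.19, so the fall of CLEC2B, a ligand, stood beside a rise of KLRF1, its receptor. Each of them had at least 1 group mean below every array median, and each had groups that did not overlap. Other listed receptor genes with the same neighbourhood median did not pass the test, and their groups overlapped. These were KLRB1 (-0.03), the receptor of CLEC2D, KLRC1 (0.09) and KLRD1 (0.14). Each of these also had both group means below every array median, so a fall in them could hardly be seen. Whether a change was shared across the region was not tested.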
